A study of Mus musculus with 2 samples.

Results

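The MHC class II genes of the mouse were followed here as a set of 10 members chosen by symbol, out of 27998 genes counted. They were H2-Aa, H2-Ab1 and H2-Eb1 (chains of the class II molecules), Cd74 (the invariant chain), H2-DMa, H2-DMb1 and H2-DMb2 (chains of the peptide exchange factor H2-M), H2-Oa and H2-Ob (chains of H2-O, which restrains H2-M), and Ciita (the transactivator of the family). All 10 had UMIs in both libraries. CD45+ leukocytes had been isolated with magnetic beads from tumours that TSA cells, a mammary carcinoma line, formed under the skin of female Balb/c mice. One library came from untreated mice and the other from mice that drank water with 0.5% nicotinamide (NAM), an amide of vitamin B3, over 10 days, and each pooled the tumours of 3 mice. No genetic modification of the mice is named, and their exact age is not given in the labels. With 1 library per group there is no replicate, so no test is given, every interval is a 95% interval that covers counting error only, and an effect of NAM cannot be told apart from a difference between the 2 pools, cell suspensions or libraries.

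Class II molecules sit on antigen-presenting cells and show peptides from engulfed material to CD4 T cells. The chains assemble on the invariant chain Cd74 and travel to endosomes, where H2-M swaps the last fragment of Cd74 for a peptide and H2-O tempers that exchange. Dendritic cells and B cells carry class II at rest, whereas macrophages and monocytes acquire it, classically under interferon gamma, through CIITA, which docks on factors bound to the X and Y boxes of the class II promoters.

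The 8 H2 members lie within 224 kb of chromosome 17 (chr17:34092340-34316674, GRCm38, GENCODE annotation), which is the assembly that mm10 names. Since the data bear on whether these neighbours move together, their promoters are shown. RefSeq (GRCm38.p6) gave promoters for 7 H2 members, and those of H2-Ab1, Cd74 and Ciita were not analysed here. In the 4 that follow, an X-box-like word, which is AGCAAC or a longer word made of AGNAAC, any base and GNTG, was followed 30 to 33 bases on by the Y-box word GATTGG, and these words are in capitals (CCAATC is GATTGG on the other strand). Each run covers positions -120 to -1 from the start site on the plus strand, at chr17:34305747-34305866 (H2-Eb1), chr17:34153071-34153190 (H2-DMb1), chr17:34092259-34092378 (H2-Oa) and chr17:34238785-34238904 (H2-Ob).
H2-Eb1: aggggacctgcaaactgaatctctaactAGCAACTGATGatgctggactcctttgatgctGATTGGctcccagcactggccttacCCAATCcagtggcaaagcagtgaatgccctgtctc
H2-DMb1: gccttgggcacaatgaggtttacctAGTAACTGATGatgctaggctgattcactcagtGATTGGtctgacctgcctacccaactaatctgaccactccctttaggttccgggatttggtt
H2-Oa: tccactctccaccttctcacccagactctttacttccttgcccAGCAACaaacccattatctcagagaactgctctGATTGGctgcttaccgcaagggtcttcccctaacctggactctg
H2-Ob: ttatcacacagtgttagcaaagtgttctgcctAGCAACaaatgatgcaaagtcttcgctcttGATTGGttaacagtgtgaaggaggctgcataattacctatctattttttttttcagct

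H2-Aa and H2-DMb2 held GATTGG but neither X-box-like word. The H2-Aa run is on the minus strand (chr17:34287824-34287943) and the H2-DMb2 run on the plus strand (chr17:34145129-34145248).
H2-Aa: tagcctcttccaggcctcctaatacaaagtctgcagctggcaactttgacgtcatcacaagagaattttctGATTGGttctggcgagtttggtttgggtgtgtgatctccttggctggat
H2-DMb2: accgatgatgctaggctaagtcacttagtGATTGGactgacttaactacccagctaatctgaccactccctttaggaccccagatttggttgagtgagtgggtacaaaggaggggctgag

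Both strands of windows from 250 bases before to 50 after the start were searched. GATTGG was in 16.1% of 32851 RefSeq promoters, AGCAAC in 14.8%, the longer X-box-like word (which contains AGCAAC when its first N is C) in 1.18%, and the X-then-Y spacing in 13 promoters, or 0.0396%. These 3 words were kept out of 7 spellings tried on the members, and the spacing was read from the members themselves, so these shares describe the printed sequences and support nothing further. H2-DMa had 2 listed promoters, and GATTGG was in 1 of them, at position -199. These sequences are of the C57BL/6 reference, from which Balb/c class II alleles differ.

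The untreated library held 2922 cells and 29161823 UMIs (median 9056 per cell), and the NAM library 3276 cells and 32090120 UMIs (median 9128 per cell). Cells were sorted into 14 classes by UMIs of marker genes, none of them a member, and 93.7% and 93.3% of cells entered a class. Macrophages (C1q genes with further markers, among them Adgre1, Fcgr1, Ms4a7 and Mrc1) numbered 1978 and 2186 and were divided into 7 subsets by gene sets that include the genes in their names. There were 285 and 318 Ly6c2 monocytes, 28 and 32 dendritic cells with Xcr1 or Clec9a (the type 1 lineage), 34 and 41 with Cd209a, and 19 and 15 mature dendritic cells (Ccr7, Fscn1, Ccl22 or Il4i1). The monocytes were cells low in C1q genes and in no other gate, with 2 or more UMIs of Ly6c2, Chil3 and Plac8 together. A cell of this class thus did not need to hold Ly6c2 itself. Levels are given in CPM, which is UMIs of a gene or of the summed members over all UMIs of the class, scaled to 1000000. Xcr1 itself stood at 258 and 461 CPM in the Xcr1 Clec9a class and at 0.537 and 1.41 CPM in macrophages. In the Cd209a class Ly6c2 stood at 997 and 99.8 CPM and Ccr7 at 477 and 108 CPM, and in the Xcr1 Clec9a class Ccr7 stood at 589 and 108 CPM, so the cells that passed these gates differed between libraries in markers of other myeloid states, whose part in the dendritic results was not tested. T cells (204 and 275) and NK cells (65 and 38) gave the level of free RNA. B cell markers reached 5 UMIs in 5 of 6198 cells and plasmacytoid dendritic markers in 2, so neither type was described. The 2 libraries shared 11 cell barcodes. These classes were rebuilt for this work and are not the cell types of the study.

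Class II genes took 3.21% of all untreated UMIs and 4.20% of all NAM UMIs. Their summed level was highest in the Cd209a dendritic cells, at 90115 CPM in untreated and 109347 CPM in NAM tumours. The Xcr1 Clec9a dendritic cells followed, with 64216 and 76091 CPM, and then the Vcam1 Dnase1l3 macrophages, with 54080 and 70747 CPM. Both dendritic classes were above every macrophage subset in each library. Among macrophages the sum was lowest in the Mmp12 Hmox1 subset (17174 and 19654 CPM) and in proliferating cells (19956 and 26519 CPM). Ly6c2 monocytes carried 36030 and 49369 CPM, within the range of the macrophage subsets. Mature dendritic cells, in which class II transcription is as a rule shut down, had 29402 and 39385 CPM. The Ctsk Acp5 myeloid cells, which carry osteoclast-type proteases and little C1q, were the lowest myeloid class, at 4445 and 6016 CPM.

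**Figure D1:**
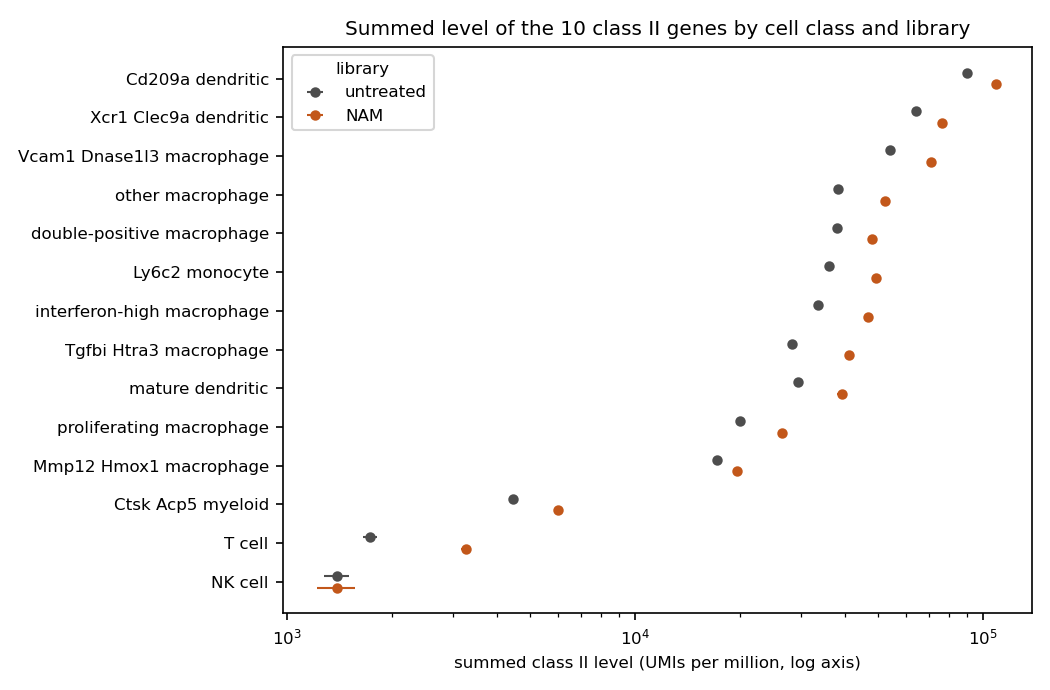
Summed level of the 10 class II genes in CPM (log axis) in each of 14 cell classes, with 1 point per library and bars for the 95% Poisson interval. Every class lies to the right in the NAM library except NK cells, whose points coincide at 1388 and 1385 CPM.

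Most neighbours in this order differed beyond their counting intervals. In the untreated library the other macrophages (38347 CPM, interval 38170 to 38525) and the double-positive macrophages, which passed both the Vcam1 and the Mmp12 gate (38024 CPM, interval 37599 to 38453) did not differ beyond counting error. The double-positive macrophages and the Ly6c2 monocytes changed places between libraries, with 38024 against 36030 CPM untreated and 48085 against 49369 CPM under NAM. The Tgfbi Htra3 macrophages and the mature dendritic cells did so too, with 28293 against 29402 CPM untreated and 41261 against 39385 CPM under NAM, but the mature levels rest on 19 and 15 cells and their direction between libraries turned with the gate and with a few cells.

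T cells and NK cells, which hold little class II RNA of their own in mice, set the background. NK cells had a sum of 1388 CPM untreated and 1385 CPM under NAM, with a log2 ratio of -0.0023 (interval -0.22 to 0.21), but the ratio was 0.88 (0.78 to 0.98) with a gate of 1 UMI and -0.19 (-0.41 to 0.02) with 3 UMIs. T cells had 1730 and 3255 CPM, a log2 ratio of 0.91 (0.84 to 0.99), which was 0.56 (0.48 to 0.64) with a gate of 3 UMIs and 0.0055 (-0.05 to 0.07) with cells of 2 lineages kept. The T-cell difference rested on few cells: 3 of 204 and 7 of 275 T cells stood at 100 or more class II UMIs per 10000, up to 207 untreated and 1197 under NAM, while the medians were 11.6 and 13.0. Without T cells at 30 or more per 10000, a limit chosen after seeing the data, the ratio was 0.09 (-0.02 to 0.19). Whether such T cells were joined with a myeloid cell was not tested. The macrophage sum was 21.0-fold and 14.6-fold that of T cells in the untreated and NAM libraries, and 26.2-fold and 34.4-fold that of NK cells. The Ctsk Acp5 sum was 2.57-fold and 1.85-fold that of T cells and 3.20-fold and 4.34-fold that of NK cells.

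The classical chains H2-Aa, H2-Ab1 and H2-Eb1 form the peptide-binding molecules themselves. H2-Aa (chr17:34282744-34287823, minus strand), the alpha chain of I-A, stood at 6429 CPM in untreated and 8367 CPM in NAM macrophages, a log2 ratio of 0.38 (0.37 to 0.39). H2-Ab1 (chr17:34257689-34269419), its beta chain, stood at 5006 and 6909 CPM, with a ratio of 0.46 (interval 0.45 to 0.48). H2-Eb1 (chr17:34305867-34316674), the beta chain of I-E, stood at 4122 and 5546 CPM, with a ratio of 0.43 (interval 0.42 to 0.44). All 3 were higher in the NAM library in each of the 7 macrophage subsets, with intervals above 0. The alpha chain of I-E was not analysed here.

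In Ly6c2 monocytes the same chains were higher by log2 0.48 (H2-Aa), 0.51 (H2-Ab1) and 0.50 (H2-Eb1). In Cd209a dendritic cells they differed by 0.26, 0.30 and 0.40, but with a gate of 1 UMI H2-Aa there had -0.021 (-0.070 to 0.028). The Xcr1 Clec9a dendritic cells were uneven, with H2-Ab1 at 0.37 (0.32 to 0.43) and H2-Aa at 0.09 (0.05 to 0.14), from 15531 to 16574 CPM. That small H2-Aa difference turned to -0.056 (-0.16 to 0.05) once each cell was thinned to 3000 UMIs. In the Ctsk Acp5 cells H2-Aa went from 551 to 705 CPM, which lies near the T-cell levels of 303 and 613 CPM.

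Cd74, the chaperone of the assembling chains, gave more UMIs than any other member in each class. Macrophages held 19282 and 24551 CPM, a log2 ratio of 0.35 (0.34 to 0.35), and monocytes 17733 and 23508 CPM, a ratio of 0.41 (0.39 to 0.43). It was 41834 and 49890 CPM in Cd209a dendritic cells and 27442 and 32800 CPM in Xcr1 Clec9a dendritic cells, with ratios of 0.25 and 0.26. Its share of the class II UMIs of macrophages was 52.9% untreated and 51.5% under NAM. Since 3′ UMIs count 1 tag per molecule whatever its length, these shares compare counts of molecules, and unequal capture of the genes was not tested. The pool of class II UMIs was composed differently in the Xcr1 Clec9a and Cd209a dendritic cells. There Cd74 took 42.7% and 43.1% in the Xcr1 Clec9a and 46.4% and 45.6% in the Cd209a class. Mature dendritic cells had 52.5% untreated and 49.0% under NAM, nearer to macrophages. H2-Aa took 24.2% (23.7 to 24.7) of the pool in untreated Xcr1 Clec9a cells and 21.8% (21.4 to 22.2) in NAM ones, against 17.6% and 17.6% in macrophages. The Ctsk Acp5 cells stood at the other end, with 61.2% and 63.0% Cd74 and 12.4% and 11.7% H2-Aa.

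The H2-M genes act after the chains reach the endosome. H2-DMa (chr17:34119541-34139101), the alpha chain, stood at 688 and 906 CPM in macrophages, a log2 ratio of 0.40 (0.37 to 0.43). H2-DMb1 (chr17:34153072-34160230), a beta chain, stood at 622 and 963 CPM, with a ratio of 0.63 (interval 0.60 to 0.66). H2-DMb2 (chr17:34143307-34151555), the neighbouring copy, stood at 264 and 407 CPM, with a ratio of 0.63 (interval 0.58 to 0.67). These beta chain genes thus had larger ratios than H2-DMa and the classical chains in macrophages, with intervals that did not overlap theirs. The share of H2-DMb1 in the class II UMIs of macrophages was 1.71% untreated and 2.02% under NAM.

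The beta chain ratios were also larger in monocytes, at 0.63 (0.53 to 0.73) for H2-DMb1 and 0.61 (0.47 to 0.76) for H2-DMb2. H2-DMa had 0.39 (0.28 to 0.49) there, which only the H2-DMb1 interval cleared. In Xcr1 Clec9a cells they were 0.60 (0.43 to 0.77) and 0.57 (0.32 to 0.83) against 0.29 (0.10 to 0.49), with intervals that overlapped. Cd209a dendritic cells had the opposite order, with H2-DMb1 at 0.15 (-0.02 to 0.32), H2-DMb2 at 0.20 (0.02 to 0.38) and H2-DMa at 0.52 (0.32 to 0.73). The intervals of both beta chain genes overlapped that of H2-DMa there too. H2-DMb1 there went from 1673 to 1862 CPM and H2-DMa from 1030 to 1483 CPM. With a gate of 1 UMI the H2-DMb2 ratio in Cd209a cells was -0.13 (-0.32 to 0.05).

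H2-DMb1 and H2-DMb2 are close copies of one gene, and the balance between them differed by cell class. H2-DMb2 gave 29.8% of their joint UMIs in untreated macrophages and 29.7% in NAM macrophages. In Cd209a dendritic cells it gave 46.4% (43.1 to 49.6) and 47.1% (44.3 to 49.95). Xcr1 Clec9a dendritic cells had 32.0% (28.5 to 35.7) and 31.6% (28.8 to 34.5), which overlaps macrophages, and mature dendritic cells stood at 39.4% (31.9 to 47.3) and 32.1% (20.3 to 46.0). The Cd209a share was thus above that of macrophages, monocytes (33.4% and 33.2%) and Xcr1 Clec9a cells in both libraries, and within each of these classes the libraries differed by less than counting error. No 98-base stretch of the last 400 bases of either reference transcript was found in the other, 0 of 303 each way, and the longest shared run was 76 bases. How reads of Balb/c alleles were divided between the copies was not tested.

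**Figure D2:**
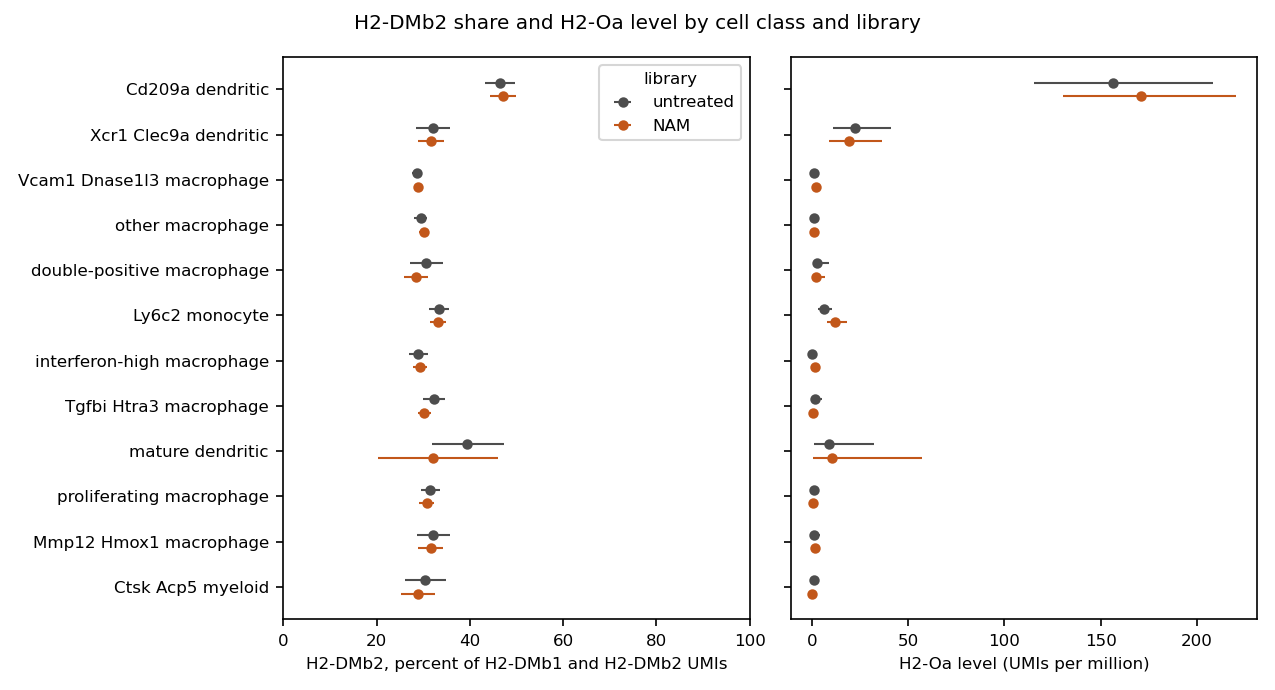
Left, H2-DMb2 as a percent of H2-DMb1 and H2-DMb2 UMIs, and right, H2-Oa in CPM, by cell class and library, with 95% intervals. The Cd209a dendritic cells have the highest values in both panels, at 46.4% and 47.1% and at 157 and 171 CPM.

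The H2-O genes were highest in dendritic cells. H2-Oa (chr17:34092340-34095234), the alpha chain, stood at 157 and 171 CPM in Cd209a dendritic cells (47 and 60 UMIs) and at 22.2 and 19.1 CPM in Xcr1 Clec9a cells (10 and 9 UMIs). Macrophages had 0.977 and 1.23 CPM, over 20 and 28 UMIs. T cells carried more H2-Oa than macrophages, at 19.2 and 14.3 CPM, so they gave no free-RNA level for this gene. In cells thinned to 3000 UMIs, H2-Oa was seen in 26.5% and 26.8% of Cd209a cells against 0.354% and 0.183% of macrophages, and unthinned in 17 of 34 and 22 of 41 Cd209a cells against 0.910% and 1.14% of macrophages, whose median depth was higher (9720 and 9744 UMIs against 8271 and 8608).

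H2-Ob (chr17:34238903-34254414), the beta chain, was highest in Xcr1 Clec9a cells, at 33.3 and 36.0 CPM (15 and 17 UMIs), and reached 23.3 and 28.5 CPM in Cd209a cells. Macrophages had 2.25 and 2.25 CPM, and T cells 0.912 and 0.650 CPM, 1 UMI each. The H2-O chains thus peaked in different dendritic classes, H2-Oa in Cd209a cells and H2-Ob in Xcr1 Clec9a cells, although for H2-Ob these classes overlapped within counting error. The H2-Oa ratio between libraries was 0.12 (-0.45 to 0.71) in Cd209a cells, and neither H2-O gene had an interval that left out 0 in any of the 14 classes.

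Ciita (chr16:10480059-10528418), the transactivator, was sparse. Macrophages held 187 and 233 UMIs, or 9.13 and 10.3 CPM, a ratio of 0.17 with an interval (-0.11 to 0.45) that holds both 0 and the ratios of H2-Aa and Cd74. Cd209a dendritic cells had 43.3 and 28.5 CPM over 13 and 10 UMIs. Monocytes had 10 UMIs untreated and 25 under NAM, 5.04 and 13.0 CPM, a log2 ratio of 1.33 (0.26 to 2.59). Among T cells 0 of 204 untreated cells had a Ciita UMI, which at 3 cells allows a share of up to 1.47% of cells with a UMI (upper Clopper-Pearson bound 1.79%), and 6 of 275 NAM cells did. In cells thinned to 3000 UMIs the share with a Ciita UMI was 3.24% and 3.11% in macrophages, and unthinned it was 8.39% and 8.97%. Thinned T cells, with median depths of 4551 and 4439 UMIs before thinning, had 0 and 1.45%.

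**Figure D3:**
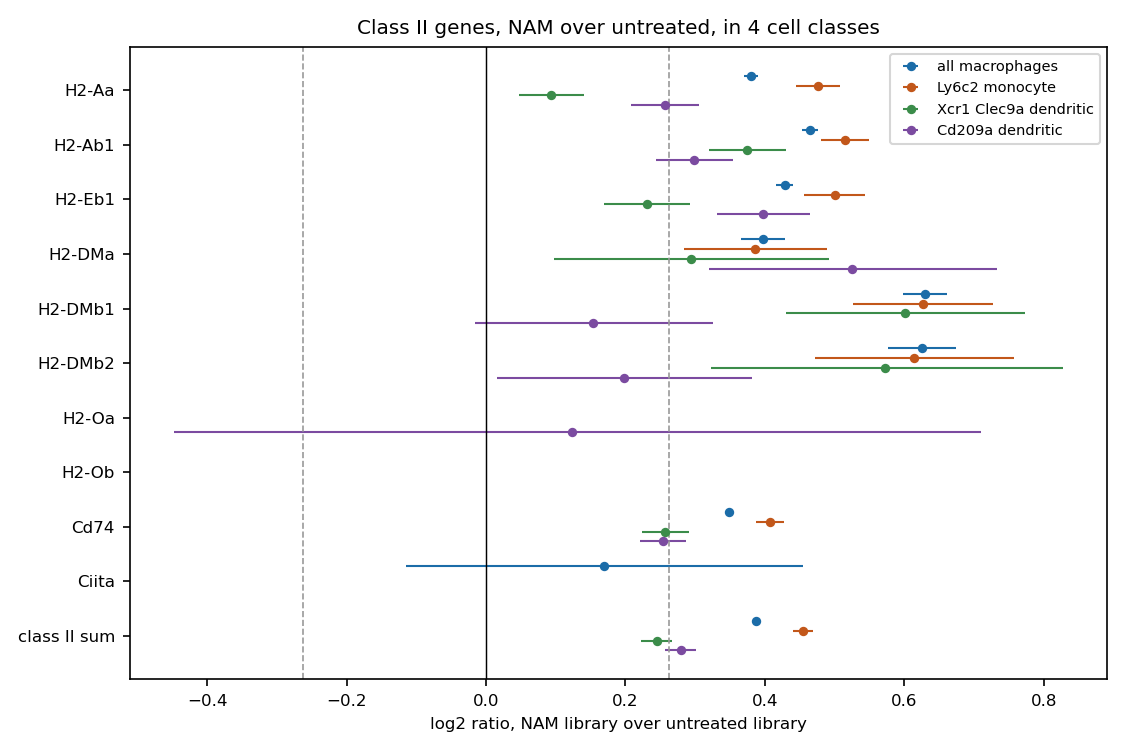
Log2 ratio of the NAM over the untreated library for each member with 100 or more UMIs and for their sum, in 4 cell classes, with 95% intervals. Dashed lines mark a fold of 1.2. Points lie right of 0, with H2-DMb1 and H2-DMb2 farthest right in all classes but Cd209a dendritic cells.

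Read against all genes, with called meaning a ratio past the fold and no test behind it, 7 of the 8 members with 100 or more UMIs in macrophages were higher in NAM by a fold of 1.2 or more, all but Ciita, against 7.08% of 9757 genes. In monocytes it was 7 of 7 members against 15.5% of 3879 genes. Xcr1 Clec9a dendritic cells had 4 of 7 against 27.9% of 1139 genes, and Cd209a dendritic cells 3 of 8 against 19.8% of 886 genes. At a fold of 1.5 the counts were 2 of 8 in macrophages and 2 of 7 in monocytes, H2-DMb1 and H2-DMb2 in each, against 0.963% and 2.50% of genes. They were 1 of 7 in Xcr1 Clec9a cells (6.85% of genes) and 0 of 8 in Cd209a cells (4.29%). None of these members with 100 or more UMIs was lower by a fold of 1.2 in the 4 classes, where 16.9%, 19.4%, 15.4% and 22.5% of genes were. The median log2 ratio of the members was 0.41 in macrophages against -0.03 for all genes, 0.50 against -0.01 in monocytes, 0.29 against 0.08 in Xcr1 Clec9a cells and 0.26 against 0.03 in Cd209a cells. The members thus lay farther from the other genes in macrophages and monocytes than in the dendritic classes, a comparison of medians with no test.

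The ratio of the sum differed between macrophage subsets. It was 0.54 (0.53 to 0.56) in the Tgfbi Htra3 subset, 0.48 (0.46 to 0.49) in the interferon-high subset and 0.45 (0.44 to 0.46) in other macrophages. Proliferating macrophages had 0.41 and the Vcam1 Dnase1l3 subset 0.39. The double-positive subset had 0.34 and the Mmp12 Hmox1 subset, which had the lowest level, 0.19 (0.17 to 0.22), but both values rest on the gate. With a gate of 1 UMI the double-positive ratio was 0.066 (0.048 to 0.085) and the Mmp12 Hmox1 ratio 0.45 (0.42 to 0.47), and with 3 UMIs they were 0.51 (0.49 to 0.54) and 0.14 (0.12 to 0.16), so no order could be given for these 2 subsets. The Mmp12 Hmox1 ratio was also 0.31 (0.29 to 0.33) once the 5 highest cells per library were left out and 0.087 with the T-cell level subtracted as free RNA, but 0.20 with the level of T cells below 30 class II UMIs per 10000 in its place. Tgfbi Htra3 cells were 5.51% of the untreated and 8.82% of the NAM library, and the part of the subset makeup in the macrophage ratio was not tested.

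Among the 7 abundant members an H2-DMb gene had the largest ratio in every subset, while the order of the others varied. H2-Oa, H2-Ob and Ciita were too sparse to be placed, as their intervals held 0 in each of the 7 subsets. H2-DMb1 ratios ran from 0.48 in the Mmp12 Hmox1 subset to 0.69 in the Tgfbi Htra3 and interferon-high subsets, and H2-DMb2 ratios from 0.36 in double-positive to 0.73 in other macrophages. H2-DMa had the smallest ratio of the 7 abundant members in the double-positive, interferon-high and Tgfbi Htra3 subsets. In the double-positive subset this lay within counting error, as its interval (0.11 to 0.42) held the H2-Aa ratio of 0.31. In the Tgfbi Htra3 subset its interval overlapped that of H2-Aa. H2-Aa ran from 0.23 (0.17 to 0.28) in the Mmp12 Hmox1 subset, at 2784 and 3255 CPM, to 0.52 (0.48 to 0.55) in the Tgfbi Htra3 subset, at 5132 and 7350 CPM. Cd74 ran from 0.16 to 0.53 and H2-DMa from 0.27 to 0.48. In the Vcam1 Dnase1l3 subset, which had the highest macrophage levels, H2-Aa stood at 9581 and 12488 CPM and H2-DMa at 845 and 1137 CPM.

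Outside macrophages, the sum was higher by 0.45 (0.44 to 0.47) in monocytes, 0.28 (0.26 to 0.30) in Cd209a dendritic cells and 0.24 (0.22 to 0.27) in Xcr1 Clec9a dendritic cells. The Cd209a value rests on the gate, as it was 0.026 (0.0038 to 0.049) with a gate of 1 UMI. In the 34 mature dendritic cells the sum was higher by 0.42 (0.36 to 0.48), but the ratio was -0.44 (-0.57 to -0.32) once the 5 highest cells per library were left out and -0.72 (-0.80 to -0.64) with a gate of 1 UMI, so no direction could be given for them. In the Ctsk Acp5 cells the ratio of the sum was 0.44 (0.40 to 0.47), and it was 0.024 once the T-cell level of each library was subtracted as free RNA and 0.54 with the level of T cells below 30 class II UMIs per 10000 in its place.

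Single cells showed how these sums were made up. Macrophages were spread from 4.71 class II UMIs per 10000, among the T and NK cells (median 12.2, 95th percentile 31.9), to 1884. Their median was 268 per 10000 untreated and 475 under NAM, and the lower quartile 38.7 and 106. Monocytes had medians of 276 and 390. Xcr1 Clec9a dendritic cells formed 1 compact group, with every cell between 348 and 1097, whereas the Ctsk Acp5 cells had medians of 27.1 and 41.6, near that 95th percentile.

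**Figure D4:**
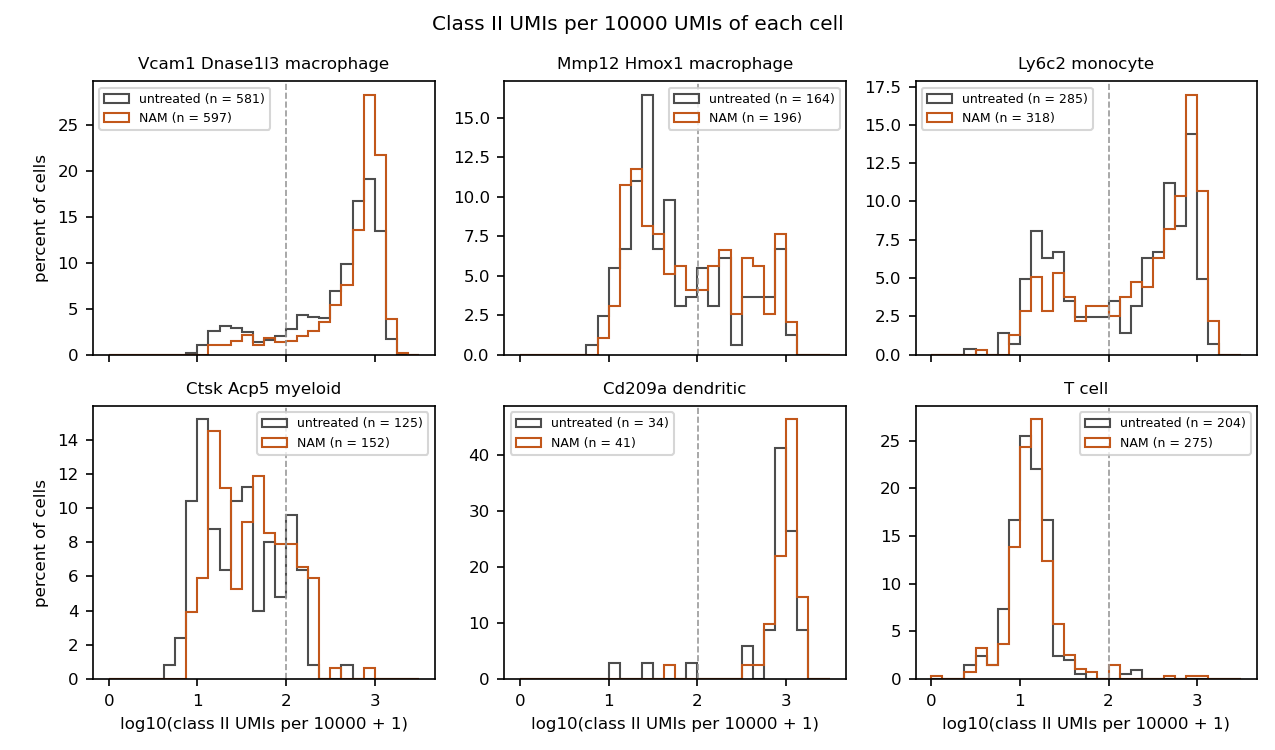
Percent of cells by class II UMIs per 10000 UMIs of the cell (log10 of the value plus 1) in 6 classes, with 1 line per library and a dashed line at 100 per 10000. Monocytes have a low and a high mode, most Vcam1 Dnase1l3 macrophages and Cd209a dendritic cells lie above the line, and most Mmp12 Hmox1 macrophages, Ctsk Acp5 cells and T cells below it.

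A limit of 100 class II UMIs per 10000, set after seeing these distributions, separated a class II-high range from the rest. It is a range and not a cell type, and 342 untreated (17.3%) and 335 NAM (15.3%) macrophages lay within 50 to 200. Of untreated macrophages 64.2% (62.0 to 66.3) and of NAM macrophages 75.7% (73.8 to 77.4) were class II-high. Monocytes had 60.7% (54.8 to 66.4) and 70.1% (64.8 to 75.1). Every Xcr1 Clec9a cell was class II-high in both libraries, and 31 of 34 and 40 of 41 Cd209a cells were. No NK cell was, 0 of 65 and 0 of 38, which at 3 cells allows shares of up to 4.62% and 7.89% (upper Clopper-Pearson bounds 5.52% and 9.25%).

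By subset, the class II-high share was 82.8% and 89.8% in Vcam1 Dnase1l3 macrophages, 58.0% and 77.2% in interferon-high macrophages, and 34.1% (26.9 to 41.9) and 42.9% (35.8 to 50.1) in Mmp12 Hmox1 macrophages. The intervals of the 2 libraries overlapped in the Mmp12 Hmox1 and double-positive subsets (76.1% and 81.0%) and in none of the other 5. In Ctsk Acp5 cells the share was 16.8% and 21.7%, with overlapping intervals.

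**Figure D5:**
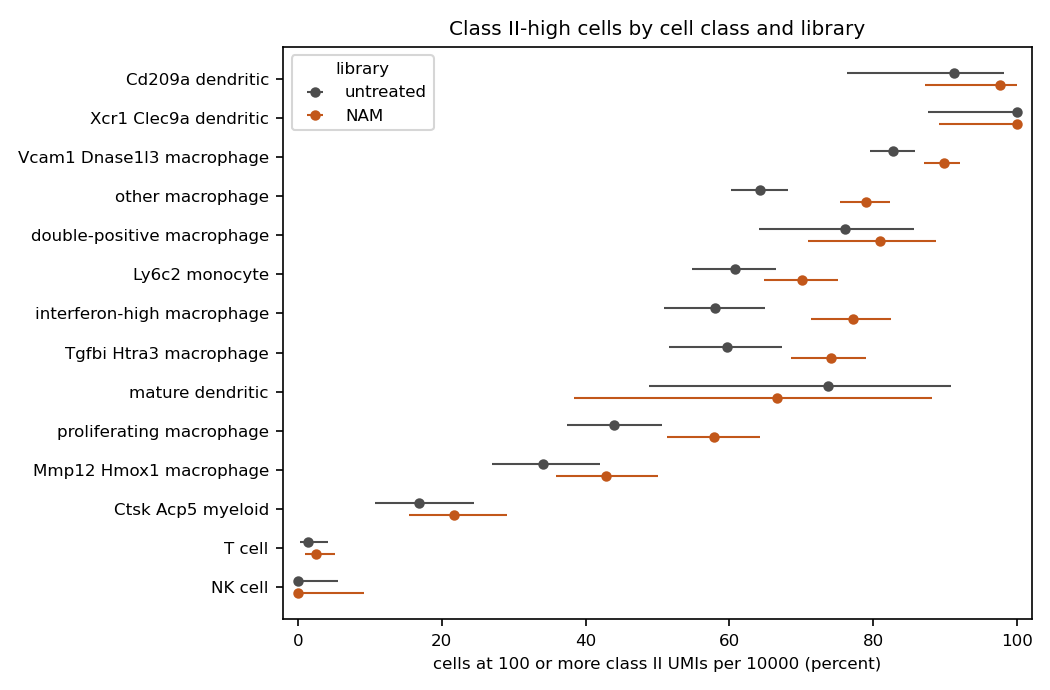
Percent of cells at 100 or more class II UMIs per 10000 in each of 14 cell classes, 1 point per library, with 95% binomial (Clopper-Pearson) intervals. Macrophage subsets range from 34.1% to 82.8% untreated and from 42.9% to 89.8% under NAM, and NK cells are at 0 in both.

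Within the class II-high macrophages the sum was 57273 CPM untreated and 63847 CPM under NAM, a log2 ratio of 0.16 (0.15 to 0.16), against 0.39 over all macrophages. Within the other macrophages it was 3223 and 3733 CPM, a ratio of 0.21 (0.19 to 0.24). In monocytes the ratio was 0.19 (0.18 to 0.21) within class II-high cells against 0.45 over all. In the Mmp12 Hmox1 subset the class II-high cells had a ratio of -0.07 (-0.10 to -0.05), while its other cells had 0.10 (0.03 to 0.17). A fixed limit holds the cells of both libraries to the same bounds, so a ratio within a range does not stand apart from the share.

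The range was cut on the members' own sum, so lower levels below it are no finding, but the members did not differ alike between the ranges. The cut itself bears most on Cd74, H2-Aa and H2-Eb1, which make up much of the sum. Only members with a like share of the sum can be compared for their fall. In untreated macrophages H2-Aa stood at 10229 CPM in class II-high and 377 CPM in the other cells, close to the 303 CPM of T cells. H2-Eb1 went from 6576 to 214 CPM, against 195 CPM in T cells. H2-DMa differed less, with 913 and 330 CPM, and the latter was 5.89-fold (4.61 to 7.79) above the T-cell level of 55.6 CPM. In NAM macrophages H2-DMa was at 1095 and 396 CPM, 4.43-fold above T cells. Macrophages with H2-Aa near the free-RNA level thus still held H2-DMa UMIs, and class II-low monocytes did too, at 360 and 331 CPM. The other H2-M genes fell more. H2-DMb1, with 1.71% of the untreated macrophage sum against 1.89% for H2-DMa, went from 973 to 63.4 CPM. Its low level was 1.56-fold (1.16 to 2.20) that of T cells untreated and 1.13-fold (0.93 to 1.39) under NAM. H2-DMb2 went from 399 to 48.1 CPM untreated, the latter 2.85-fold (1.83 to 5.00) the T-cell level. Cd74 in low macrophages was 1827 CPM untreated against 786 CPM in T cells. Ciita stood at 13.99 CPM in high and 1.39 CPM in low untreated macrophages (176 and 11 UMIs) and at 13.5 and 1.47 CPM under NAM (224 and 9 UMIs).

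Across macrophages, in cells thinned to 3000 UMIs, the counts of the chains went together. Spearman's correlation with H2-Aa was 0.92 for H2-Ab1, 0.92 for H2-Eb1, 0.94 for Cd74, 0.76 for H2-DMb1, 0.56 for H2-DMb2 and 0.54 for H2-DMa over 1978 untreated cells. Over 2186 NAM cells the values were 0.93, 0.93, 0.94, 0.74, 0.57 and 0.53. These cells share a library and a depth, sparse genes give low values whatever their link, and no p is given. Ciita had 0.14 and 0.11 on this measure.

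Other genes of the pathway came from a list of 28, of which 27 were analysed. In macrophages 26 had 100 or more UMIs, and 3 of these were higher by a fold of 1.2 or more, against 7.08% of all genes, and 2 lower, against 16.9%. Among the regulators, Irf1, an interferon-responsive factor, stood at 76.9 and 133 CPM, with a ratio of 0.79 (interval 0.70 to 0.88). The factors that bind the X and Y boxes stood between -0.25 and 0.03: Rfx5 was -0.03 (-0.52 to 0.47), Rfxank 0.03, Nfya 0.01, Rfxap -0.17 (-0.32 to -0.03) and Nfyc -0.25 (-0.45 to -0.05). Spi1, the myeloid factor PU.1, had 0.09.

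Of 5 proteases that prepare peptides or trim Cd74, only Ctsd passed the fold of 1.2 in macrophages, and it was lower under NAM. Ctss, the protease for Cd74 in myeloid cells, was 3863 and 4268 CPM in macrophages, a log2 ratio of 0.14 (0.13 to 0.16). Ctsd went from 747 to 619 CPM, -0.27 (-0.31 to -0.24), Ctsb was at -0.19, Ctsl at -0.09 and Lgmn at -0.02. Ifi30, which reduces disulfides in antigens, had 0.12. Jak2, a kinase of the interferon gamma receptor, went from 19.1 to 10.9 CPM, -0.81 (-1.05 to -0.58), while the receptor chains Ifngr1 and Ifngr2 had 0.06 and 0.18. The costimulatory ligands Cd80 and Cd86 had 0.27 (0.04 to 0.49) and 0.26 (0.19 to 0.34). March1, which removes class II from the surface, had -0.19 (-0.38 to 0.00).

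In monocytes 22 list genes had enough UMIs, of which 4 were higher (Irf1, Nfyb, Ifngr1 and Cd80), against 15.5% of all genes, and 7 lower (Rfxap, Nfyc, Ctsl, Ctsd, Cd83, Jak2 and Cd40), against 19.4%. Of the factors that bind the X and Y boxes, Rfxap had -0.82 (-1.37 to -0.30), Nfyc -0.45 (-1.03 to 0.11) and Nfyb 0.46 (-0.10 to 1.03), and Jak2 had -1.03 (-1.55 to -0.54). Irf1 had 0.70 (0.47 to 0.94), from 120 to 196 CPM. Cd40 had -0.79 (-1.03 to -0.55), from 199 to 115 CPM, whereas in macrophages it was 78.2 and 92.3 CPM, a ratio of 0.24 (0.14 to 0.33). The list was 1 of 10 higher in Xcr1 Clec9a cells and 5 of 11 in Cd209a cells, against 27.9% and 19.8% of genes, and 1 gene was lower in each, against 15.4% and 22.5% of genes. The 7 abundant members were thus higher in macrophages and monocytes while the median list gene had a ratio of 0.0037 in macrophages and -0.11 in monocytes.

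The level of the members over the 14 classes was compared with that of 10459 genes, on log2(CPM + 1) averaged over both libraries. The 10 genes with the highest Pearson correlation with the sum were Ppfia4 (0.97), Tbc1d9 (0.96), Nfe2l2 (0.96), Fgd2 (0.95), Gm6377 (0.95), Nrros (0.94), Cnn3 (0.94), Themis2 (0.94), Cd86 (0.94) and Hfe (0.94). Among the members, Cd74, H2-Aa, H2-Eb1 and H2-Ab1 stood at 0.99 or above, which they had to approach as they make up the sum. H2-DMa had 0.97, Ciita 0.91, H2-Ob 0.70 and H2-Oa 0.25. The 14 classes share 2 libraries and differ in depth, so these values describe likeness of profile and no p is given.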

How the data were processed

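The authors isolated CD45+ cells, made 10x Genomics Single Cell 3′ libraries and counted UMIs with Cell Ranger against mm10. The deposited values are raw UMI counts per gene and cell, not normalised, in 1 table per library, and the cells hold 3001 to 41658 UMIs. Reads of Balb/c alleles were thus assigned to a C57BL/6 reference. The members, the gene lists and the questions were chosen with earlier results of these data known. Cells were classed by marker UMIs (2 or more in a cell, C1q genes and Ctsk, Acp5 and Mmp9 by 20 or more per 10000), with limits set on the markers after these were seen, and cells in the gates of 2 lineages were left out. No doublet caller was run. UMIs were summed by class and library and divided by the class total (CPM). Log2 ratios (pseudocount 0.5 UMIs) carry exact conditional binomial intervals, levels Poisson intervals and shares Clopper-Pearson intervals, all at 95%. Only the ratio intervals were checked on simulated data. Those data held counting error alone, so the check says nothing of spread between cells, mice or libraries. Calls took a fold of 1.2 or more and 100 UMIs or more in the class. The named genes are the members, the pathway list and the 10 genes most like the sum over classes. Python 3.11.15, NumPy 2.4.6, SciPy 1.17.1, pandas 2.3.3 and matplotlib 3.10.9 were used. Gene positions came from GENCODE vM21 and promoters from RefSeq. Promoters of H2-Ab1, Cd74 and Ciita and the gene H2-Ea-ps were not analysed here. Some marker and pathway genes that entered the gates and the counts are not reported here.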

Additional observations from a re-analysis of the deposited data

Results flagged for a closer look

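Cells outside the comparisons also carried class II UMIs. The 123 untreated and 156 NAM cells that entered no class had a summed level of 11264 and 21490 CPM, a log2 ratio of 0.93 (0.90 to 0.96), and 24.4% and 43.6% of them were class II-high. The 61 and 63 cells in the gates of 2 lineages had 44440 and 47603 CPM, a ratio of 0.10 (0.08 to 0.12). In both sets the sum was above that of NK cells, and which cell types they hold was not tested.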

How the results depend on the processing

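No paired analysis was possible because each group is 1 library. Counting error was the only error that could be given, and with few UMIs it left wide intervals for Ciita, H2-Oa and H2-Ob. The log2 ratio of the sum was above 0 in all 16 alternatives for macrophages, 9 for monocytes, 9 for Xcr1 Clec9a and 9 for Cd209a dendritic cells, and of 699 alternative values for single members whose interval left out 0, 680 kept their sign. Some of these settings, such as a pseudocount of 1 UMI, could hardly turn a sign. The summed classes were also counted beside their own subsets, so 680 of 699 is no measure of robustness. With cells thinned to 3000 UMIs the ratio of the sum was 0.37 in macrophages, 0.35 in monocytes, 0.16 in Xcr1 Clec9a cells and 0.23 in Cd209a cells. With a marker gate of 1 UMI it was 0.55 in monocytes, 0.33 in Xcr1 Clec9a and 0.026 in Cd209a cells, and with 3 UMIs 0.49, 0.20 and 0.22. Scaling by the median of gene ratios gave 0.42 in macrophages, 0.17 in Xcr1 Clec9a and 0.25 in Cd209a cells, and a class total without the members 0.40, 0.31 (Cd209a) and 0.47 (monocytes). Leaving out the 5 highest cells of each library gave 0.48 in monocytes, 0.30 in Xcr1 Clec9a and 0.33 in Cd209a cells. Subtracting the T-cell level as free RNA gave 0.36 in macrophages, 0.43 in monocytes and 0.22 in Xcr1 Clec9a cells, and the level of T cells below 30 class II UMIs per 10000, chosen after seeing the data, gave 0.40 in macrophages. Keeping cells of 2 lineages gave 0.38, 0.21 (Xcr1 Clec9a) and 0.31 (Cd209a). Within subsets the macrophage ratio was 0.19 (Mmp12 Hmox1), 0.34 (double-positive), 0.41 (proliferating), 0.45 (other), 0.48 (interferon-high) and 0.54 (Tgfbi Htra3). With gates of 1 and 3 UMIs the Mmp12 Hmox1 ratio was 0.45 and 0.14 and the double-positive ratio 0.066 and 0.51, so that the order of these 2 subsets was reversed with 1 UMI and kept with 3 UMIs, and the NK-cell ratio was 0.88 and -0.19. In mature dendritic cells the sum turned to -0.72 with a gate of 1 UMI, -0.067 thinned and -0.44 without the 5 highest cells. There, under the same settings in this order, H2-Aa turned to -0.33, -0.0013 and -0.41, H2-Ab1 to -1.41, -0.38 and -2.42, and Cd74 to -0.63, -0.042 and -0.22 (and -0.018 with a gate of 3 UMIs). H2-Eb1 there turned to -0.91 with a gate of 1 UMI and -0.996 without the 5 highest cells. Other reversals were H2-Aa in Xcr1 Clec9a cells thinned (-0.056), H2-Aa (-0.021) and H2-DMb2 (-0.13) in Cd209a cells with a gate of 1 UMI, H2-DMb2 in T cells without the 5 highest (-0.090), and, with free RNA subtracted, H2-Aa (-1.43), H2-Ab1 (-1.05) and H2-Eb1 (-2.84) in Ctsk Acp5 cells, whose levels lie near those of T cells and whose summed ratio was then 0.024. The cause of these changes was not tested. The summed level in untreated and NAM cells thinned to 3000 UMIs was 39207 and 50698 CPM in macrophages, 36351 and 46402 in monocytes, 66714 and 74333 in Xcr1 Clec9a and 88049 and 103350 in Cd209a cells. With a gate of 1 UMI it was 36562 CPM in untreated macrophages, 30475 and 44593 in untreated and NAM monocytes, 59825 in untreated Xcr1 Clec9a and 91538 in NAM Cd209a cells. With a gate of 3 UMIs it was 36548 in untreated macrophages, 37296 and 52511 in monocytes, 66421 in untreated Xcr1 Clec9a and 94381 in untreated Cd209a cells. With limits of 50 and 200 class II UMIs per 10000, chosen after seeing the data, the class II-high share was 71.9% and 54.6% in untreated and 82.7% and 67.3% in NAM macrophages, and 66.7% and 54.4% in untreated and 77.4% and 61% in NAM monocytes. At a fold of 1.5 the members called were 2 in macrophages, 2 in monocytes, 1 in Xcr1 Clec9a and 0 in Cd209a cells, and the pathway genes 1, 1, 0 and 2. With a minimum of 20 UMIs 4 of 23 pathway genes were called in Xcr1 Clec9a and 9 of 19 in Cd209a cells, where 34.1% and 24.1% of all genes were, and with no minimum 5 of 26 and 12 of 26 with a UMI, where 38% and 33% were.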
